A study of Mus musculus with 1187 samples.

Results

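The 6 genes described here encode integrin subunits of endothelial cells: the alpha subunits Itga1, Itga5, Itga6 and Itgav and the beta subunits Itgb1 and Itgb3. They were chosen by name, as 6 of the 46517 genes in the deposited matrix, and all 6 had reads. Integrins are receptors made of 1 alpha and 1 beta chain that hold a cell to the matrix around it and signal in both directions across the membrane. In vessels of the brain, endothelial cells sit on a basement membrane rich in laminins and collagen IV, which they share with pericytes and astrocyte endfeet. The Itgb1 product pairs with each of the 4 alpha chains, giving a receptor for collagen IV and laminin with Itga1, for laminin with Itga6 and for fibronectin with Itga5. The Itgb3 product pairs with Itgav, as a receptor for vitronectin, fibronectin and other ligands, and with Itga2b on platelets.

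The cells came from brains of 3-month-old C57BL/6 mice of the genotypes Pdgfb ret/+ (590 labelled cells) and Pdgfb ret/ret (597 labelled cells). The ret allele lacks the motif that retains PDGF-B near the endothelium, and homozygotes have few pericytes around brain vessels. All mice carried the reporters Cldn5-GFP and Cspg4-DsRed, and cells with green and without red fluorescence were sorted into plates of 384 wells for Smart-seq2, a full-length method without molecular identifiers, so the cells are those in which the Cldn5 reporter was active. The deposited columns carry plate and well names and the labels carry cell numbers, so genotype could not be assigned to a column and ret/ret cells were not compared with ret/+ cells. The matrix was treated as 1 pooled sample of 1187 cells on 4 plates, numbered 521, 522, 523 and 524, with 300, 290, 285 and 312 cells. Plates 521 and 522 together held 590 cells and plates 523 and 524 held 597, the same numbers as the ret/+ and ret/ret labels; equal numbers do not place a cell, and no genotype was taken from them. The labels name no animal, and differences between plates cannot be told apart from differences between genotypes or animals. No p-value is given, because cells of 1 sample are not replicates.

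The matrix held 418924921 reads, from 100779 to 584112 per cell with a median of 360947. The 7 endothelial markers were all read and led by Cldn5 at 4038 CPM; they summed to 14348 CPM, where CPM is the number of reads per 1000000 reads of the cells summed. The marker lists of 10 other cell types summed to between 5.93 CPM for leukocytes and 66.9 CPM for pericytes. At a fixed depth of 100000 reads per cell, the median number of genes with a read was 4156, 3902.5, 3278 and 3463.5 on plates 521 to 524.

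Promoters of 4 of the 6 members were matched in RefSeq (GRCm38.p6); Itga6 and Itgb3 were not. The 250 bases before the annotated start are shown for Itgb1, the most widely read member, for Itga1, whose level differed little between cell sets, and for Itga5, the alpha gene that differed most between plates. They are chr8:128685404-128685653 on the plus strand, chr13:115101965-115102214 on the minus strand and chr15:103366792-103367041 on the minus strand, printed 5′ to 3′ along the gene. Capitals mark GGGCGG or its reverse complement CCGCCC, the core of the GC box that Sp-family factors bind.
Itgb1: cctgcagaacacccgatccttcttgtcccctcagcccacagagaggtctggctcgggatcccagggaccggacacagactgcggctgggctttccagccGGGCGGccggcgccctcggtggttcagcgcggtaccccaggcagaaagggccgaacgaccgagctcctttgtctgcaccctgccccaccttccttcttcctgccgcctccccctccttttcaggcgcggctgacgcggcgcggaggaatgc
Itga1: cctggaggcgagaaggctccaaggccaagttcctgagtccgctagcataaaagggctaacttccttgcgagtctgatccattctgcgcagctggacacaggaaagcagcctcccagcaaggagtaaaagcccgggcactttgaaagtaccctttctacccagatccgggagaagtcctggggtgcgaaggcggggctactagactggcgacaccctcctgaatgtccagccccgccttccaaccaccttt
Itga5: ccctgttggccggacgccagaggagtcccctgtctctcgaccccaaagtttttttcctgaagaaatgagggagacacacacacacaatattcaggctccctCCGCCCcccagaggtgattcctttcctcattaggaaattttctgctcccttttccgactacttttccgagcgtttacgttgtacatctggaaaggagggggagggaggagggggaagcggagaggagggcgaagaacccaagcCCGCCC
The Itgb1 window held 1 match, the Itga5 window held 2 and the Itga1 and Itgav windows held 0, on either strand. A match stood in 32.9% of 27025 RefSeq promoters of this length. CCGGAA or TTCCGG, a longer form of the ETS core GGAA (12.2% of promoters), was not found in the 4 windows. Nor was TATAAA or TTTATA, the TATA box (13.0% of promoters). The core GGAA alone stands in each printed window, and its share over all promoters was not counted. The Itgb1 window held 21 CpG pairs, Itgav 18, Itga5 11 and Itga1 10, against a median of 6 over all promoters. These matches describe letters in the windows and no binding was measured.

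Itgb1 had the highest level of the 6 genes, and among the 4 alpha genes Itga6 and Itga1 stood far above Itga5 and Itgav. To set genes of different length beside each other, levels were divided by the exon bases of the gene in GENCODE M21 (GRCm38). On that scale Itgb1 (chr8:128685654-128733200, plus strand) had 165 CPM per kb. Itga6 (chr2:71745616-71858416, plus strand) had 104 CPM per kb and Itga1 (chr13:114953096-115101964, minus strand) had 39.1 CPM per kb. Itga5 (chr15:103344286-103366763, minus strand) had 15.2 CPM per kb and Itgav (chr2:83724397-83806916, plus strand) had 3.27 CPM per kb. Itgb3 (chr11:104608000-104670476, plus strand) was lowest, with 0.558 CPM per kb. Itga6 and Itga1 had nearly the same level in CPM, 454 and 429, but the exons of Itga1 span 10967 bases and those of Itga6 4361. Exons of Itga1 overlap those of Gm49395 on the same strand in this annotation.

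**Figure D1:**
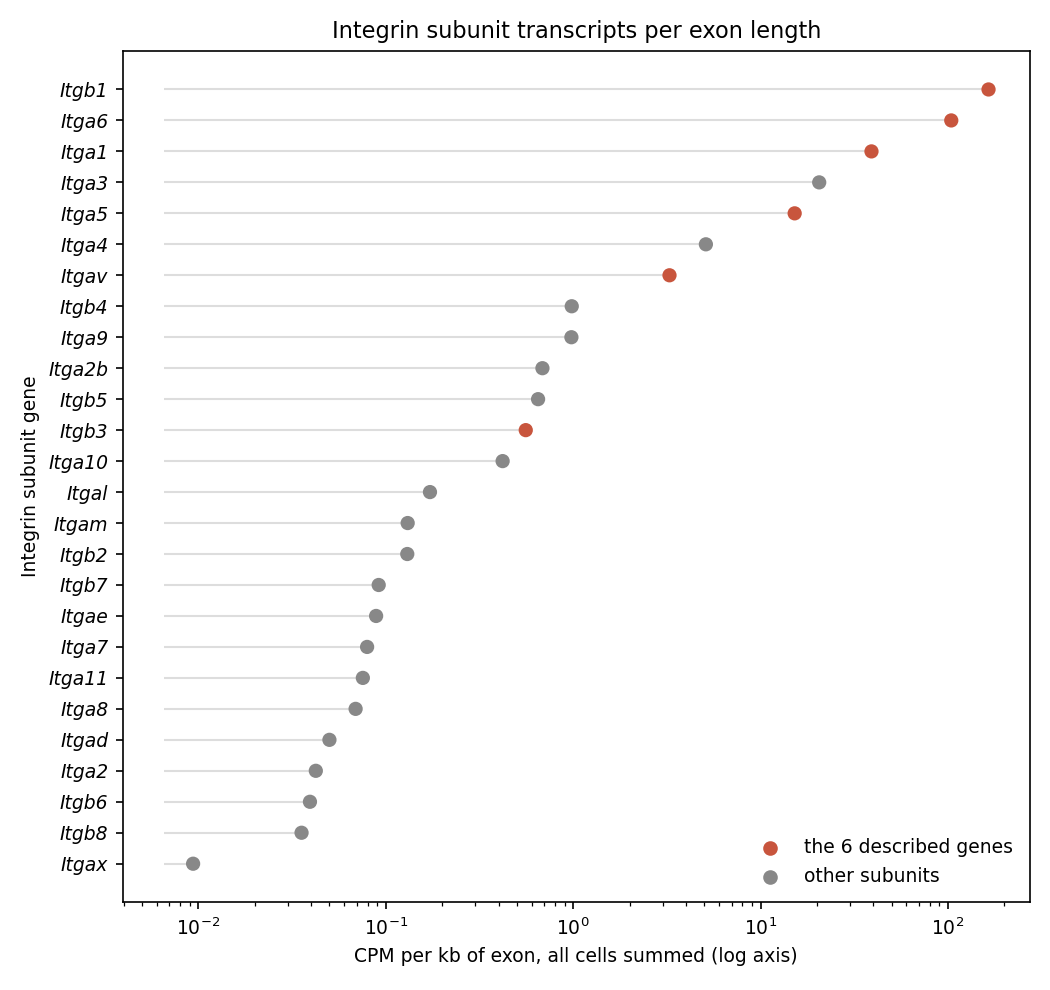
Level of each of 26 integrin subunit genes in all 1187 cells summed, in CPM per kb of exon on a log axis, with 1 point per gene. The 6 described genes are in red and the other subunits in grey; Itgb1 stands at 165, Itga6 at 104 and Itga1 at 39.1, while Itgb3 stands at 0.558 among subunits that were hardly read.

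Of the other 20 integrin subunit genes, 2 reached 20 CPM. Itga3, a laminin receptor subunit, had 108 CPM (20.6 CPM per kb) and was read at fixed depth in 36.3% of cells, which places it between Itga1 and Itga5 per kb. Itga4, whose product binds fibronectin and VCAM1, had 49.9 CPM (5.11 CPM per kb) and was read in 40.4% of cells. The remaining 18 stood below 20 CPM, 12 of them under 1 CPM. Of the beta genes besides Itgb1, Itgb4, a partner of Itga6 in hemidesmosomes, had 6.27 CPM and Itgb5, a partner of Itgav, had 2.20 CPM; these 2 are named by choice after their values were seen.

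The share of cells with a read at fixed depth followed the same order as the levels. Itgb1 was read in 87.8% of cells (95% Clopper-Pearson interval 85.8% to 89.6%), Itga6 in 80.7% (78.3% to 82.9%) and Itga1 in 79.5% (77.1% to 81.8%). Itga5 was read in 25.3% of cells (22.8% to 27.8%) and Itgav in 17.3% (15.2% to 19.5%). Itgb3 was read in 25 cells, 2.11% (1.37% to 3.09%). A cell without a read is not shown to lack the transcript at this depth. In the cells with a read at fixed depth, the median level from all reads of the cell was 599.9 CPM for Itgb1, 453 for Itga6, 447 for Itga1, 198 for Itga5, 75.9 for Itgav and 60.4 for Itgb3.

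**Figure D2:**
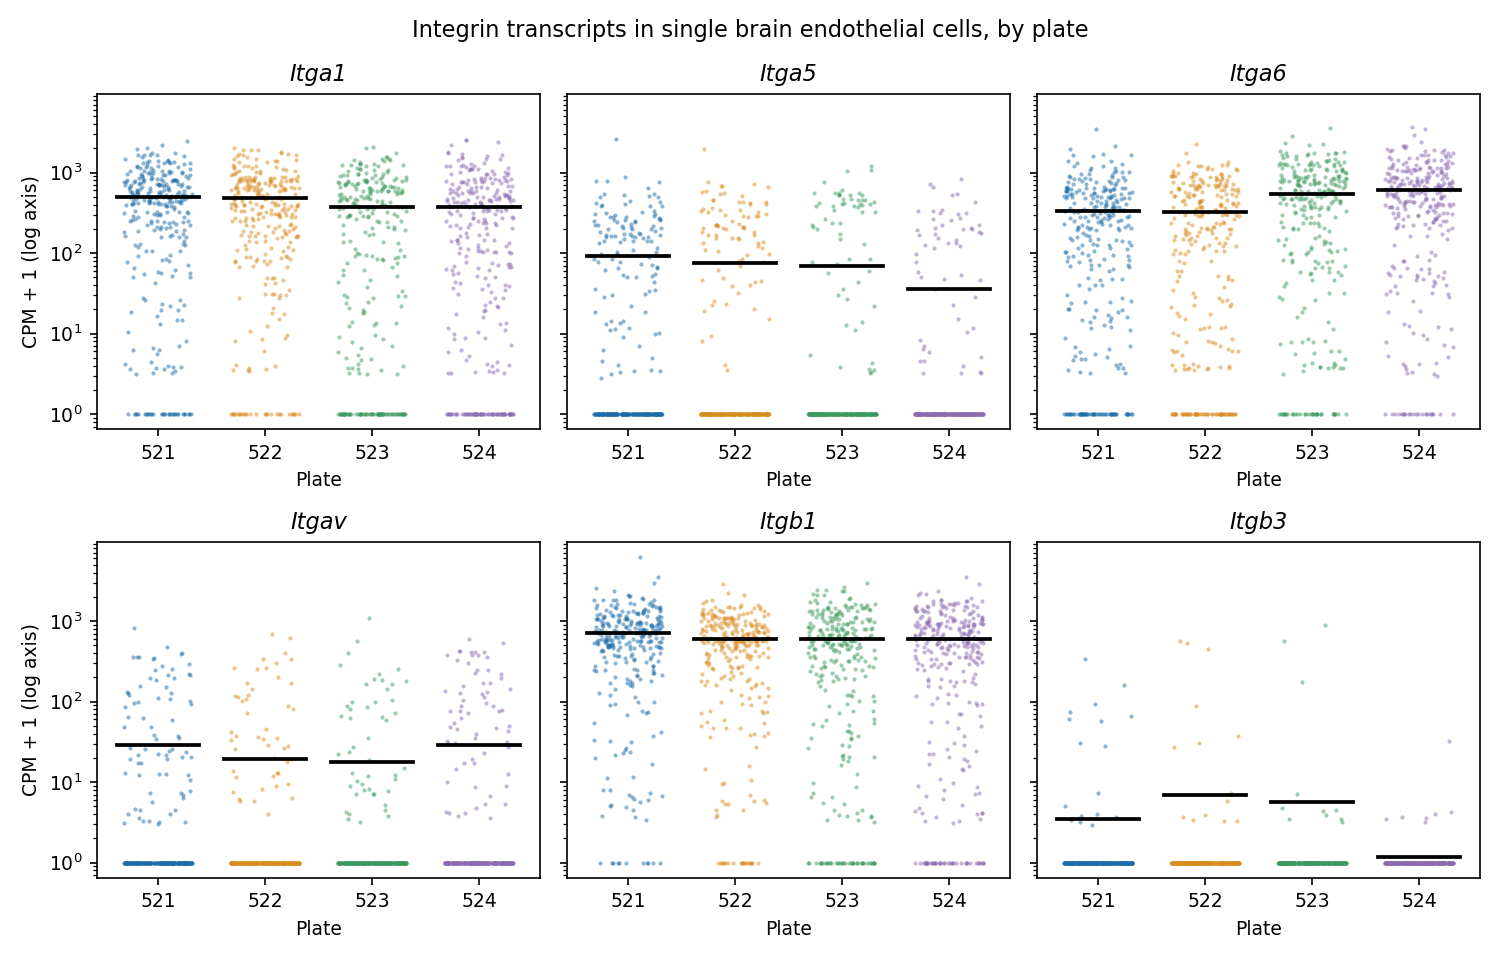
CPM + 1 of each member in each of the 1187 cells on a log axis, by plate, with cells without a read at 1. Black bars mark the CPM of the summed counts of the plate plus 1. Itgb1, Itga1 and Itga6 were read in most cells of every plate, Itga5 and Itgav in a minority and Itgb3 in single cells.

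Between plates, Itga1 and Itgb1 differed least and Itga5 and Itgb3 most. In CPM, Itga1 stood above Itga6 on plates 521 and 522 and below it on plates 523 and 524. On plates 521, 522, 523 and 524, Itgb1 had 709, 601, 594 and 606 CPM, so that plate 521 was highest and the other plates lay close together. Itga1 had 498, 479, 370.3 and 370.0 CPM, with plates 521 and 522 above the other pair. Itga6 had 335, 327, 538 and 610.2 CPM, with plates 523 and 524 above the other pair. Exact Poisson intervals were narrow, for Itga6 on plate 524 from 606 to 615 CPM. They treat each read as an independent count, which reads without molecular identifiers are not, so they are too narrow for transcripts. The intervals on shares cover counting error of cells only.

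Itga5 had 90.6, 73.6, 68.9 and 34.4 CPM on the 4 plates, with plate 524 lowest. Its share of cells with a read was 38.3%, 27.9%, 20.0% and 15.1%. Itgav had 27.9, 18.4, 17.0 and 28.1 CPM, with plates 521 and 524 high. Itgb3 had 2.51, 5.93, 4.63 and 0.184 CPM, and the highest of these values was 5.85 times the lowest after 1 CPM was added to both sides. On that scale the highest plate stood above the lowest by 1.19 times for Itgb1, 1.34 for Itga1, 1.62 for Itgav, 1.87 for Itga6 and 2.59 for Itga5. Thus 4 of the 6 members passed 1.5-fold between plates: Itga5, Itga6, Itgav and Itgb3. Of the 8240 genes at 20 CPM or more over all cells, 40.6% passed, and their median ratio was 1.43. Itgb3, at 3.23 CPM over all cells, is not among these genes, so its ratio has no such share beside it. The median number of genes per cell was likewise higher on plates 521 and 522, as were the Itga1, Itga5 and Itgb1 shares. Itgb1 was read in 93.0%, 91.4%, 82.8% and 84.0% of cells on plates 521 to 524. The Itga6 share went the other way, with 75.3%, 75.2%, 82.5% and 89.4%. The part of the number of genes in those differences was not tested.

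In CPM, Itga1 and Itga6 traded places between plates in nearly every set of cells examined. The log2 ratio of Itga1 to Itga6, each with 1 CPM added, was 0.57 and 0.55 on plates 521 and 522 and −0.54 and −0.72 on plates 523 and 524. In most marker sets defined below the sign was the same as over all cells: in the venous set 0.84, 0.57, −0.80 and −0.52, in the capillary set 0.06, 0.47, −0.42 and −0.49, and in the angiogenic set 0.62, 0.30, −0.64 and −1.27. In the arterial set the ratios were 1.28, 0.81, 0.01 and −0.38, and plate 523 was level. Among cells in no set they were 0.64, 0.77, −0.63 and −0.76. The sign divides the plates into the same pairs whose cell numbers equal those of the 2 genotype labels, so genotype and plate cannot be told apart in it. These ratios compare the same gene pair between plates and do not compare the 2 levels per length. Per kb of exon, Itga6 was above Itga1 on every plate, so the change of sign holds for CPM only. On plates 521 to 524 Itga6 had 76.8, 74.9, 123 and 140 CPM per kb, and Itga1 45.4, 43.6, 33.8 and 33.7.

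By cell, 63.9% had a read of both Itga1 and Itga6 at fixed depth, and this share lay between 60.7% and 65.7% on every plate. Cells with Itga1 alone made up 21.3%, 22.8%, 11.6% and 7.05% of the 4 plates, and cells with Itga6 alone 11.0%, 10.3%, 21.8% and 23.7%. The Itga1-only share was higher on plates 521 and 522 and the Itga6-only share on plates 523 and 524. Neither gene was read in 3.71% of cells.

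**Figure D3:**
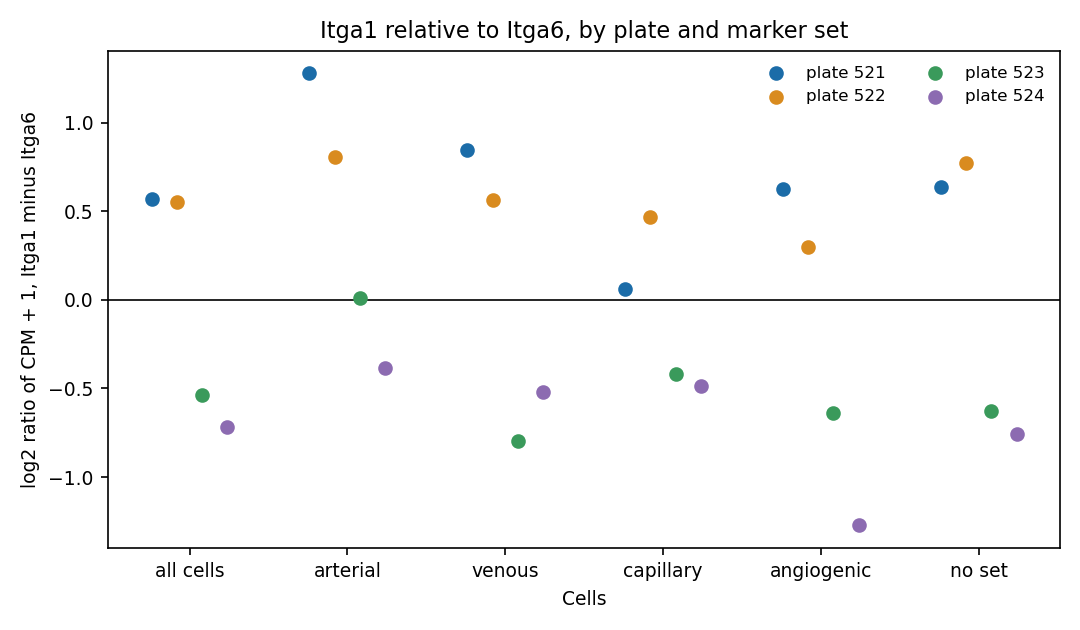
Log2 ratio of Itga1 to Itga6 (CPM + 1 of summed counts) on each of the 4 plates, over all cells, in the 4 vessel-zone marker sets and in cells of no set, with 1 point per plate. The ratio was above 0 on plates 521 and 522 in every group and below 0 on plate 524 in every group; plate 523 was level in the arterial set.

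To describe the members along the vessel tree, cells were scored for arterial (14 genes), venous (12), capillary (10) and angiogenic (11) markers, none of them an integrin. Within each plate the highest 15% of cells of each score formed a set, and 100 cells high for more than 1 list were left out. This gave 140 arterial, 128 venous, 133 capillary and 108 angiogenic cells, with 578 in no set; each set is a range of a score and not a cell type. Between 13 and 50 cells of a set, and between 23 and 46 cells outside it, lay within 0.05 score units of its threshold. Because the sets were chosen on these lists, higher list levels inside them follow from the choice and are no check of it. Median summed CPM per cell of the arterial list was 2506 in the arterial set and between 6.52 and 36.6 elsewhere. For the venous list it was 4802 in the venous set and between 673 and 1394 elsewhere, for the capillary list 15164 against 4962 to 9016, and for the angiogenic list 3336 against 1123 to 1667. Genes per cell at fixed depth had medians of 3828, 4048.5, 3561 and 3977.5 in the arterial, venous, capillary and angiogenic sets. Immediate early and heat shock genes (8 genes) summed to 4196, 3407, 2106 and 2551 CPM in these sets, and fibroblast markers (6 genes, none at 0 in the arterial set) to 100.1 CPM in the arterial set against 2.06 to 9.14 elsewhere; their part in the ratios below was not tested.

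Itga6 was lower in the arterial set than in the other sets. Its levels were 289 CPM in the arterial, 382 in the venous, 497 in the capillary and 598 in the angiogenic set. On plates 521 to 524 the arterial set had 199, 218, 359 and 416 CPM, and the capillary set had 491, 392, 517 and 590.4 CPM. The arterial value was below the capillary value on each of the 4 plates, although the ranges over plates overlapped. The log2 ratio, arterial minus capillary, was −0.78, and between −1.30 and −0.50 on single plates. The angiogenic set had 411, 471, 649 and 1049 CPM on the 4 plates, which is below the capillary set on plate 521 and above it on the others. Its log2 ratio to the capillary set was 0.27, under 1.5-fold, and −0.42 with cells ranked over all plates, so the order of these 2 sets is not settled. The share of cells with a read was 72.1% in the arterial, 77.3% in the venous, 91.0% in the capillary and 81.5% in the angiogenic set. It did not follow the level on every plate. On plate 522 the arterial share was 71.8%, above the venous share of 65.7% and the angiogenic share of 64.3%. Itga6 was the 1 member of 4 tested (at least 20 CPM on either side) that passed 1.5-fold between these sets, and 28.9% of the 8795 genes tested did so. Against the venous set, the arterial difference in Itga6 was smaller (−0.40, between −0.58 and −0.13 on plates).

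Itga5 was highest in the venous set, with 107 CPM, followed by 85.1 in the angiogenic, 63.9 in the arterial and 48.3 in the capillary set. Arterial cells had 53.0, 69.6, 94.8 and 48.3 CPM on the 4 plates, and venous cells had 58.2, 179.6, 118 and 75.3 CPM. The venous value was the higher on all 4 plates, most of all on plate 522, where a single venous cell had 1981 CPM. The share of cells with a read did not follow on every plate. On plates 521 to 524 it was 36.6%, 28.2%, 19.2% and 23.5% in arterial and 27.8%, 37.1%, 41.9% and 23.1% in venous cells. The log2 ratio, arterial minus venous, was −0.73, between −1.35 and −0.13 on single plates, and −0.42 without plate 522, which does not pass. Itga5 and Itgav were the 2 of 5 tested members past 1.5-fold here, where 29.0% of 8898 genes passed.

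Capillary cells had 79.4, 29.0, 80.2 and 0.52 CPM of Itga5, so the venous value exceeded the capillary value on 3 of 4 plates and was below it on plate 521. The log2 ratio, venous minus capillary, was 1.13, between −0.44 and 5.65 on plates, and 0.59 without plate 522. Itga5 and Itgav again passed 1.5-fold, 2 of 5 tested members against 25.9% of 8707 genes. Angiogenic cells had 132, 105, 59.0 and 8.05 CPM of Itga5, and the log2 ratio to capillary cells was 0.80, between −0.44 and 2.57 on plates. Itga5 was the 1 of 4 tested members past 1.5-fold in this comparison, with 25.1% of 8626 genes, and without plate 522 its ratio was 0.50, which does not pass. Between 19.5% and 32.8% of the cells of a set had a read of Itga5, so single plates rest on few cells with reads.

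Itgav had 16.8 CPM in the arterial, 27.5 in the venous, 17.9 in the capillary and 17.4 in the angiogenic set. Its ratios turned over between plates. Arterial minus venous, the log2 ratio was −0.68 over all plates and −1.48, 3.63, −1.13 and −1.82 on plates 521 to 524, so plate 522 stood against the other 3. Without plate 522 the ratio was −1.49, and without plate 521 or 524 it was −0.31 or −0.21 and did not pass. Venous minus capillary, it was 0.59, with plates from −2.52 to 3.89, and it did not pass without plate 523 (0.36) or 524 (0.32) or with TMM scaling (0.55). Without the 61 cells with markers of other types, the ratio was 1.26 venous minus capillary, and arterial minus capillary it was 0.61 in place of −0.09. Between 15.0% and 22.2% of the cells of a set had a read of Itgav.

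Itgb1 and Itga1 passed 1.5-fold in none of the 4 comparisons. Itgb1 had 726 CPM in the arterial, 622 in the venous, 629.9 in the capillary and 706 in the angiogenic set, and its log2 ratios lay between −0.02 and 0.22. Itga1 had 392, 389, 467 and 532 CPM in the same order, and its log2 ratios lay between −0.27 and 0.19. The angiogenic set was above the capillary set in Itga1 on all 4 plates, by 0.04 to 0.31 on the log2 scale. Itgb3 was under 20 CPM in every set and was not tested. It had 9.16 CPM in the arterial set and between 0.704 and 3.35 CPM in the others, but on plate 522 the arterial set had 29.6 CPM and on the other plates 1.05, 5.89 and 0.077 CPM. Its log2 ratio, arterial minus venous, was 2.58 over all plates and 0.60 without plate 522. For each member, the ranges over plates overlapped for all 6 pairs of sets.

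**Figure D4:**
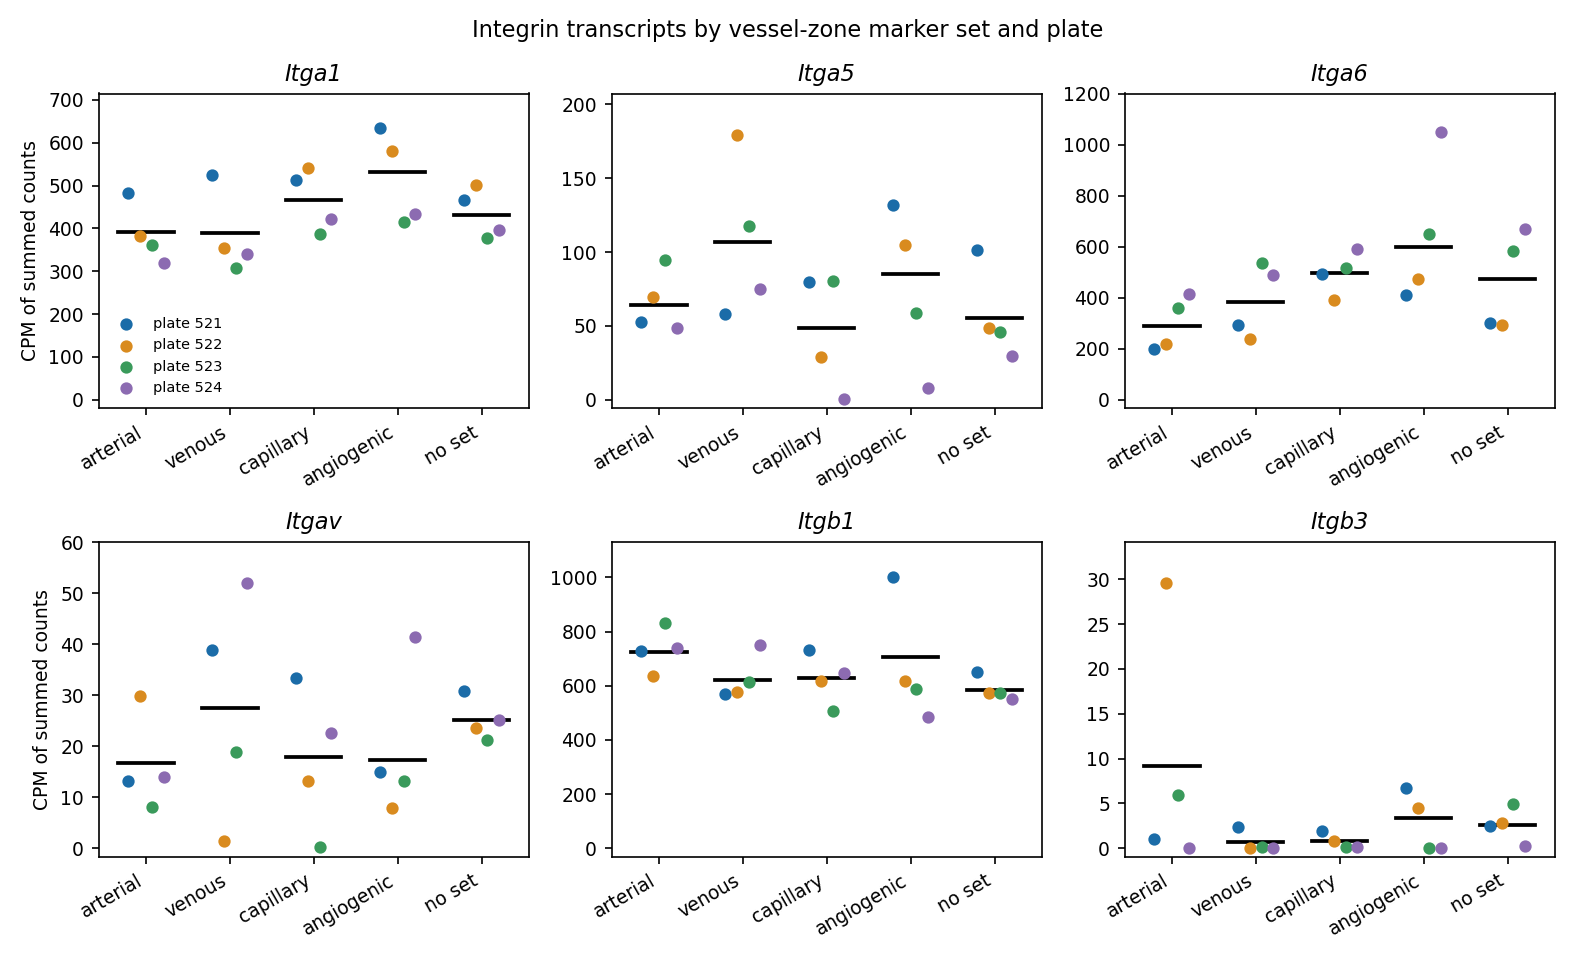
Level of each member in CPM of summed counts in the 4 vessel-zone marker sets and in cells of no set; points are plates, black bars the 4 plates summed, and each panel has its own linear axis. Itga6 stands lower in the arterial than in the capillary set on each plate (sums 289 and 497 CPM), and Itga5 lower in the arterial than in the venous set (63.9 and 107 CPM).

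As a view without a score, cells were split by a read of each of 29 zone markers that were read in 10% to 90% of cells, and the integrin level with the marker was set against the level without it. The splits share cells, so they are not independent of each other. For all markers except the capillary markers Car4, Mfsd2a and Tfrc, cells with the marker had the higher median number of genes read. For Bmx the median was 4035 with and 3543 without a read. For Car4 the median was 3555 with and 3828 without a read. The part of these differences in the ratios was not tested.

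Itga6 was lower in cells with each of the 8 arterial markers, with a median log2 ratio of −0.48. For Bmx, a kinase gene of arterial endothelium, it was 276 CPM with and 509.7 CPM without a read (log2 ratio −0.88, between −1.04 and −0.63 on plates). For Gkn3 it was 282 and 499.6 CPM, and for Gja4, a gap junction gene of arteries, 271 and 477 CPM. The mean of the 4 within-plate ratios was also below 0 for all 8, with a median of −0.57. Of 8205 genes, 8.92% were lower with all 8 in the pooled cells and 13.8% within plates. Itga6 was higher with 6 of the 7 capillary markers, the exception being Cxcl12 (−0.30), pooled and within plates; 13.9% of genes pooled and 15.9% within plates were higher with 6 or more. For Car4, a carbonic anhydrase of capillaries, it was 562 CPM with and 290.4 without (log2 ratio 0.95, between 0.51 and 0.99 on plates). Itga6 was also lower with all 8 venous markers in the pooled cells (median −0.31; 5.76% of genes), while within plates, where 4.39% of genes were lower with all 8, its median was −0.13. With Angpt2, an angiogenic marker, the pooled ratio of Itga6 was −0.10 while each of the 4 plates gave a ratio between 0.15 and 0.48.

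Itga5 was higher in cells with each of the 8 venous markers, with a median log2 ratio of 0.43 pooled and 0.37 within plates. Of 8205 genes, 6.79% were higher with all 8 in the pooled cells and 3.27% within plates. For Vwf, the von Willebrand factor gene, Itga5 was 85.0 CPM with and 33.0 without a read (log2 ratio 1.34, and 0.96 as the mean within plates). For Ephb4, a receptor of venous endothelium, it was 86.1 and 49.8 CPM (0.78, between 0.67 and 1.03 on plates). These were the 2 venous markers for which all 4 plates gave the same direction. Itga5 was lower with all 7 capillary markers in the pooled cells (4.47% of genes), but with 5 of 7 within plates, where 25.3% of genes were lower with 5 or more. It was higher with all 6 angiogenic markers pooled (8.96% of genes), but with 3 of 6 within plates, where 43.2% of genes were higher with 3 or more.

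Itgav was lower with 7 of the 8 arterial markers (median −0.53), the exception being Clu, and with 7 of 8 within plates. Of all genes, 20.2% pooled and 27.6% within plates were lower with 7 or more, so this count is not particular to Itgav. Itgb1 ranged from −0.16 to 0.44 over the 29 markers in the pooled cells, and none passed 1.5-fold. Itga1 ranged from −0.26 to 0.41 and also passed with none. Itgb3 was higher with all 8 arterial markers (7.68% of genes pooled and 7.03% within plates), with 5.32 to 13.4 CPM with and 1.90 to 2.50 without a read, and on 1 to 3 of the 4 plates for each marker. Those shares are over genes at 20 CPM or more, a level Itgb3 did not reach (3.23 CPM). As 5 cells held 68.4% of its reads and the splits share cells, nothing is read from this count.

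**Figure D5:**
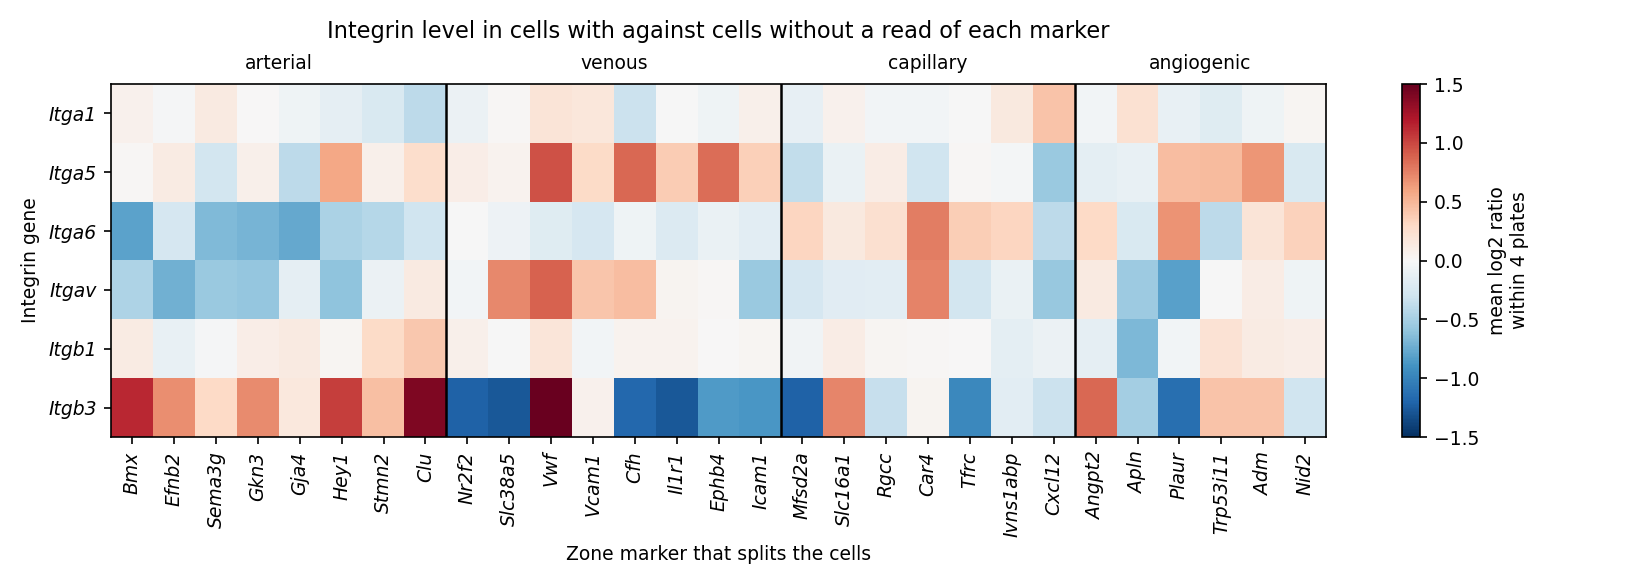
Mean over the 4 plates of the log2 ratio of each member (rows, CPM + 1) in cells with against cells without a read of each of 29 zone markers (columns, grouped by list); red is higher with the marker and blue lower. The Itga6 row is blue for all 8 arterial markers (median −0.57) and the Itga5 row is red for all 8 venous markers (median 0.37).

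Itgb1 was read in the same cell as Itga6 or Itga1 in most cells and as Itga5 or Itgav in a minority, each time close to the product of the 2 single shares. Itgb1 was read together with Itga6 in 71.5% of cells (68.9% to 74.1%), where the product of the shares is 70.8%, and with Itga1 in 70.6% (67.9% to 73.2%), where it is 69.8%. It was read with Itga5 in 23.8% of cells (product 22.2%) and with Itgav in 15.6% (product 15.2%). Among cells with a read of Itga5, 94.3% (91.1% to 96.7%) had a read of Itgb1, against 85.6% (83.1% to 87.8%) of cells without Itga5, and the share was higher with Itga5 on all 4 plates. Cells with Itga5 also had more genes read, a median of 4118.5 against 3523, and the part of that was not tested. For Itga1 the shares were 88.8% and 84.0%, for Itga6 88.6% and 84.3%, and for Itgav 90.2% and 87.3%.

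The cells held 1 alpha gene in 271 cases, 2 in 550, 3 in 288 and all 4 in 43, and 35 cells had a read of none of the 4. Over cells of a plate, Spearman correlations of the 15 pairs of members lay between −0.12 and 0.16, as a description over 285 to 312 cells that share a plate, and in sparse counts such values are no finding. Itgav and Itgb3 were read together in 7 cells, 0.590% (0.237% to 1.21%). Itgb3 was read in 3.41% of cells with and 1.83% of cells without Itgav, with overlapping intervals.

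Reads of Itgb3 came from few cells: 1 cell held 18.5% of its 1353 reads and 5 cells held 68.4%. Because Itgb3 is also a platelet gene, platelet genes were looked at in the 25 cells with a read of it at fixed depth. Of the 7 platelet markers, any was read in 5 of these 25 cells and in 72 of the other 1162. Their summed level was 64.7 CPM in the first and 8.11 CPM in the second group, and their part in the Itgb3 level was not tested. Pf4 was read in 3 of the 25 cells, while Gp9, Gp6 and Treml1 were read in 0 of 25, where 3 cells in place of 0 would give 12.0%, a limit on cells with a read at this depth and not on cells with the transcript. Itga2b, the platelet partner of Itgb3, was read in 2 and Itgav in 7 of the 25 cells, and Itgb1 in 24.

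The genes most like each member were found over 16 sums (4 plates by 4 marker sets), by Pearson correlation of log2(CPM + 1) among 8205 genes at 20 CPM or more that were no zone marker. The sums share plates and depth, and the coefficients are a description. They are the highest of 8205 over 16 sums, and the values that unrelated genes reach in such a search were not computed. For Itgb1 the 3 genes were Dst and Dst.1, rows of the same name for the cytolinker dystonin (0.87 and 0.85), and Anxa5, which encodes annexin A5 (0.84). For Itga6 they were Camk2n1, an inhibitor of CaM kinase II (0.90), the kinase gene Map3k1 (0.87) and Rap1a (0.87), a small GTPase that activates integrins. For Itga5 they were Pigk (0.93), Lrrc57 (0.87) and Kremen1 (0.86), and for Itga1 RP23-148L8.3 (0.88), Ica1l (0.85) and Ggcx (0.84). For Itgav the highest were Kbtbd2 (0.81), Nop9 (0.80) and Phospho2 (0.77), and for Itgb3 Thsd7a, Ubald1 and Prr13 (0.70 each). Itgb3 had 0 reads in the venous sums of plates 522 and 524 and in the angiogenic sums of plates 523 and 524. Its coefficients rest on few cells with reads. With plate means removed, the largest falls were those of Ggcx to 0.67, Ubald1 to 0.57 and Thsd7a to 0.59. Some coefficients rose, among them that of Prr13 to 0.75.

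The machinery around the receptors was broadly read. Of 22 activators and adaptors, 18 reached 20 CPM, with a median of 149 CPM; Tln1 (talin) had 183 CPM, Fermt2 (kindlin) 309 CPM and Ilk (integrin-linked kinase) 237 CPM, named as core members after their values were seen. Of 16 ligand genes, 9 reached 20 CPM, led by the fibronectin gene Fn1 at 1147 CPM, the ligand of the Itga5 receptor. All 6 surface partners reached 20 CPM and 4 of 6 inhibitors did, Itgb1bp1 being counted in separate rows, which makes its level uncertain.

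The counts of these lists past 1.5-fold stand beside the shares over all genes in either direction, 28.9% arterial against capillary, 29.0% arterial against venous, 25.9% venous against capillary and 25.1% angiogenic against capillary. Activators and adaptors, with 6 of 19, 5 of 20, 7 of 19 and 1 of 18 past 1.5-fold in these comparisons, and inhibitors, with 0, 0, 1 and 0 of 4, lay mostly near or below those shares. All lists are small, and nothing is read from a count about a list. Arterial against capillary cells, 2 ligand genes of 11 tested were past 1.5-fold higher and 3 lower (median log2 ratio 0.02, all genes 0.02). Fn1 was lower (767 against 1303 CPM; −0.76), as were Hspg2 (perlecan; −0.74) and Nid1 (nidogen; −1.95), each on all 4 plates. Of 6 surface partners, Cd9, a tetraspanin, was higher in arterial cells (204 against 14.8 CPM; 3.70), and Bsg (−0.77) and Slc3a2 (−1.35) were lower. Of 19 activators and adaptors tested, 5 were higher and 1 lower (median 0.0049); Parva (0.69) and Zyx (0.76) were higher and Lims1 (−0.59) lower on all 4 plates. Of the other subunits, Itga4 was lower in arterial cells (29.1 against 58.4 CPM; −0.98), while Itga9 and Itgb4 were higher, the last 2 named after their values were seen.

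Arterial against venous cells, the subunit Itga3 was lower, with 70.4 against 198 CPM (−1.48, between −3.42 and −1.05 on plates); Itga9 and Itgb4 were higher in arterial cells, making 2 higher and 1 lower of 4 tested. Of 11 ligand genes tested, 2 were higher and 2 lower (median 0.24, all genes −0.0040), and Fn1 was lower in arterial cells (767 against 1381 CPM; −0.85). Of 20 activators and adaptors, 3 were higher and 2 lower (median −0.07), with Tns1 (0.86) and Rapgef1 (1.09) higher on all 4 plates. Of the 6 surface partners, Cd9 was higher (1.26) and Bsg (−0.67) and Slc3a2 (−0.85) lower. Of the 4 inhibitors tested, 0 passed in either comparison with arterial cells.

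Venous against capillary cells, Itga3 was higher (198 against 46.8 CPM; 2.06) and Itga4 lower (20.9 against 58.4 CPM; −1.44) on all 4 plates, the 2 other subunits tested. Of 19 activators and adaptors, 5 were higher and 2 lower (median −0.01, all genes 0.02); Vcl (vinculin) was higher (0.64) and Lims1 (−0.77) and Tns1 (−0.60) lower on all 4 plates. The inhibitor Flna, or filamin A, was higher (0.88), as 1 of 4 inhibitors. Of 9 ligand genes, 0 were higher and 2 lower (median −0.35), Hspg2 (−0.95) and Nid1 (−1.15). Of 6 surface partners, Cd9 was past 1.5-fold higher (2.43), with 3 of 4 plates in that direction; it is named here after its values were seen.

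Angiogenic against capillary cells, laminin genes, whose products bind the Itga6 and Itga1 receptors, were among the 10 ligand genes tested, of which 5 were higher and 1 lower (median 0.60, all genes 0.02). Lama4 (286 against 142 CPM; 1.00) and Lamc1 (251 against 119.6 CPM; 1.06) were higher and Lama5 (85.7 against 161 CPM; −0.91) lower on all 4 plates. Of 18 activators and adaptors 1 was higher (median 0.24), of 6 surface partners 1, Cd9 (1.53), and of 4 inhibitors 0. Both other subunits tested, Itga3 (1.51) and Itga4 (0.80), were higher, each on 3 of 4 plates, and are named here after their values were seen. The members themselves had Itga6 at 0.27 and Itga1 at 0.19 in this comparison, both under 1.5-fold.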

How the data were processed

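Single-cell libraries were compared within 1 pooled sample of 1187 cells on 4 plates. The authors deposited a matrix of whole-number read counts per gene; the tools named in the submitters' processing notes are featureCounts, Subread 1.4.6-p5, TopHat2 2.1.1 and SAMtools 0.1.18, and the builds GRCm38 and mm10. Whether counting used strand was not stated there, so a gene and an overlapping antisense gene cannot be told apart. No molecular identifiers were available, so reads of a cell are not independent molecules.

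From these counts, levels were computed as CPM of counts summed over cells with exact Poisson intervals at 95%, and shares of cells with a read at 100000 reads drawn from each cell, a depth all cells reached, with exact Clopper-Pearson intervals. No cell was removed, no doublet caller was run, and no 2 columns were identical. Zone scores were means over a marker list of log2(CPM + 1) after thinning, each gene standardised within its plate, and the top 15% of cells of a plate formed a set. Log2 ratios used a prior of 1 CPM on both sides, which understates differences of low genes. A gene was tested, in the sense of looked at, with 20 CPM or more on either side, and a difference was called at 1.5-fold. No p-value was computed. The text names the 6 members, pathway genes at 20 CPM or more over all cells that passed 1.5-fold in the same direction on all 4 plates, and the 3 genes most like each member; exceptions are stated. The members and lists were chosen with earlier results of these data known. Alternatives were the size and ranking of the sets, scaling (TMM in edgeR 4.0.16, median of ratios), prior, minimum level, thinning to 50000 reads, cells with markers of other types or with many genes left out, and each plate left out. The within-plate mean over single markers, and the shares of genes that meet a member's own count of markers, were added after seeing the data. The scripts were tested on simulated counts. Python 3.11.15, numpy 2.4.6, scipy 1.17.1 and pandas 2.3.3 were used; exon lengths and coordinates came from GENCODE M21 basic and promoters from RefSeq.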

Additional observations from a re-analysis of the deposited data

Results flagged for a closer look

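Over the 4 plates, 30 groups of values were looked at (each member over all cells and in each of the 4 sets) for a plate that stood far from the rest, and 2 were marked, where chance marks about 1 in 20. Itgb1 over all cells was highest on plate 521, with 709 CPM against 606 CPM on the next plate and 594 CPM on the lowest. Itgb3 in the venous set was highest on plate 521, with 2.37 CPM against 0.0907 CPM on the next plate. Plates 522 and 524 had 0 reads of Itgb3 in the venous set, over 35 and 26 cells. Taking 3 reads in place of 0 would give 0.278 and 0.315 CPM, but this treats reads as independent. Reads of a cell are not independent molecules, so levels above these values are not excluded. The Itgb3 value rests on few reads.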

How the results depend on the processing

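Of 360 log2 ratios of members between sets under the alternatives, 349 moved by less than the spread over plates and 11 by more; 0 called ratios changed sign. That spread is a standard deviation and reached 2.69 for Itga5, venous minus capillary. A ratio with a wide spread can thus move far and still be counted among the 349, as Itgb3, arterial minus venous, did without plate 522. All 48 levels by plate and all 6 shares of cells moved by less than their spread over plates. Of the medians over single markers, 44 of 48 moved by less than the spread over markers, and 20 of 20 pathway counts stayed within 1.5-fold. The number of members past 1.5-fold, arterial against venous, was 1 in place of 2 with the top 10% of cells, with cells ranked over all plates, with the mean of single-cell CPM and with a prior of 5 CPM, 3 with a minimum of 5 CPM or with no minimum, and between 1 and 2 with a plate left out. Arterial against capillary, it was 2 in place of 1 with the top 10% or 25% of cells, with ranking over all plates, with a minimum of 5 CPM and with no minimum, and between 1 and 2 with a plate left out. Venous against capillary, it was 1 in place of 2 with the top 25%, with the mean of single-cell CPM, with either other scaling and with a prior of 5 CPM, and between 1 and 2 with a plate left out. Angiogenic against capillary, it was 2 in place of 1 with no minimum, and between 0 and 1 with a plate left out, 0 without plate 522. The cause was not tested. Over all genes, the counts of 2582, 2543, 2257 and 2165 in these 4 comparisons were 4359, 4378, 4037 and 3963 with a minimum of 5 CPM and 7929, 7903, 7586 and 7656 with no minimum, where more genes were tested. The Itga6 ratio, arterial minus capillary, lay between −1.12 and −0.61 under all 15 alternatives; the Itga5 ratio, arterial minus venous, lay between −0.95 and −0.42. Thinned to 50000 reads, 66.3% of cells had a read of both Itga6 and Itgb1, against 71.5%; fewer reads were left. Without the 61 cells with markers of other types, Itgb3 on plate 523 was 2.36 CPM in place of 4.63. TMM and median-of-ratios scaling moved the median of all genes by less than 0.1 on the log2 scale. No paired analysis was possible because the columns carry no replicate number or genotype and no test was made. Depth limits Itgb3, Itgav and Itga5 most: their shares of cells without a read do not show absence, and genotype could not be compared.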
